A study of Mus musculus with 12 samples.

Results

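Proliferation genes were followed in the livers of female mice that had received testosterone or oil. The set held 34 genes of DNA replication and cell division, listed by symbol for their function, with no threshold on their signal on these arrays. Of these, 33 had at least 1 probe set annotated with that symbol alone, 69 probe sets in all, and Ccnb1 was not analysed here. The array table as a whole covered 12393 genes.

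Messenger RNA was measured on 12 Affymetrix arrays, 1 per mouse, in livers of females of the inbred C57BL/6 line. Testosterone mice received 0.9 mg of the hormone in 100 µl of sesame oil under the skin, 2 times per week for 3 weeks, and vehicle mice received the oil alone on the same schedule. The 4 groups of 3 mice each were testosterone at the end of treatment, vehicle at the end of treatment, testosterone after withdrawal and vehicle after withdrawal. The withdrawal lasted 12 weeks by the sample labels and 3 weeks by the series text, which leaves its length unsettled. The sources used here do not give the age of the mice or the state of their ovaries. Per the labels, the study asked how the hormone acts on liver expression in females in the short and the long term. Values are array signals scaled by the submitters, and 1 probe set was taken per gene. Signals of different probe sets are on different scales, so levels are compared between mice and never between genes.

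In a dividing cell, D-type cyclins with Cdk4 release the brake on G1, cyclin E with Cdk2 starts S phase, and the MCM helicase opens the DNA for polymerases that are held on the template by the clamp PCNA. Ribonucleotide reductase and thymidine kinase supply the deoxynucleotides, and cyclins A and B with Cdk1 carry the cell through G2 into mitosis, where the Aurora and Polo kinases and the anaphase machinery separate the chromosomes. Most hepatocytes of an adult liver rest outside the cycle, and the organ re-enters it in bulk after injury or loss of tissue. Non-parenchymal cells, Kupffer cells among them, can divide in place.

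On the 1 probe set used per gene, the 9 mitotic genes of the set lay under the middle of the array in every liver. Much of the G1 and replication machinery in the set was measurable. A gene was taken as above background when its probe set exceeded the median signal of the array, which was 20.0 to 22.4, on at least 3 of the 12 arrays. This held for 17 of the 33 genes measured, against 58.2% of all 12393 genes. These were Ccnd1, Ccnd2, Ccnd3, Cdk2, Cdk4, the inhibitors Cdkn1a, Cdkn1b and Cdkn2c, the helicase subunits Mcm2, Mcm4, Mcm6 and Mcm7, the clamp Pcna, the nucleotide enzymes Rrm1, Rrm2 and Tk1, and Cdk1. Of the 17, 10 exceeded the median on all 12 arrays. By probe set, 31 of 69 passed. On the probe sets used, the other 16 genes exceeded it on 0 of 12 arrays, with a highest signal of 19.2, for Ccnb2 in vehicle mouse 2 of the earlier time. Among all their probe sets the median was passed on 1 array, by a different Cdc20 probe set that read 23.7 in vehicle mouse 2 after withdrawal.

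All 9 mitotic genes were among these 16, and the values that follow are of the probe sets used. Cdc20, an activator of the anaphase-promoting complex, read at most 15.6, and Mki67, the source of the Ki-67 proliferation antigen, at most 15.0. The highest reading was 12.1 for the topoisomerase Top2a and 12.2 for Foxm1, a transcription factor of G2 and M phase genes. Birc5, the inhibitor of apoptosis survivin, reached 9.82, and the kinases Aurka, Plk1 and Aurkb reached 8.86, 7.89 and 7.13. Bub1, a spindle checkpoint kinase, did not exceed 4.62, which is under the floor of 4.84 below which signals were not ordered. Among earlier-acting genes, Ccne1, Ccne2, Mcm3, Mcm5, Tyms, Ccna2 and Ccnb2 stayed under the median as well, at no more than 15.8, 12.5, 14.7, 18.5, 10.5, 18.7 and 19.2. A signal under the median is a bound set by the array and does not show that a transcript was absent.

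The number of the 33 genes above the array median was, at the end of treatment, 12, 13 and 14 with testosterone, against 14, 16 and 14 with vehicle. After withdrawal it was 16, 16 and 14 in testosterone mice, against 15, 16 and 15 in vehicle mice. Per array, 54.7% to 55.3% of all genes exceeded the median.

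**Figure D1:**
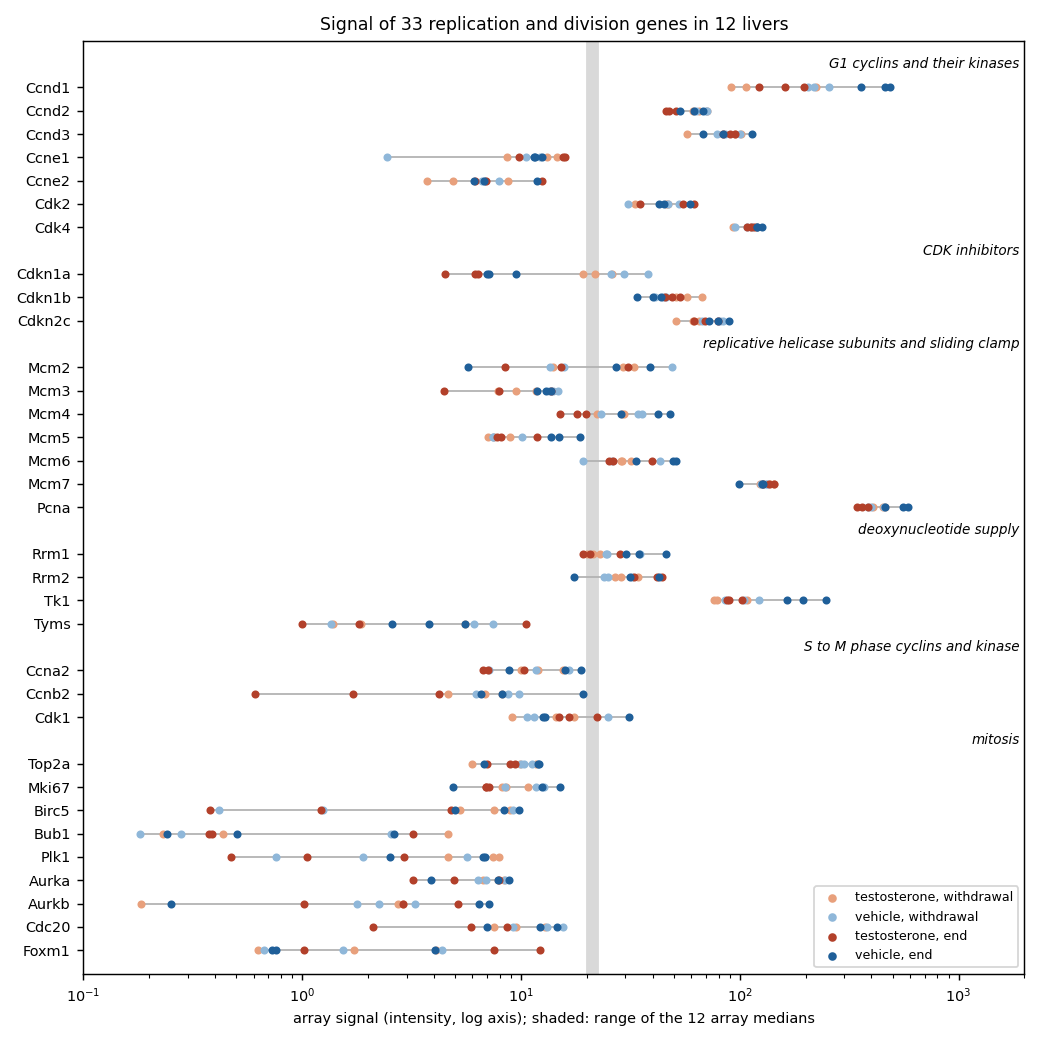
Array signal (log axis) of the 33 measured genes in each of 12 livers, by role. Points are mice, coloured by group, lines run over the range, and the shaded band spans the 12 array medians of 20.0 to 22.4. On the probe set used, all 9 mitotic genes lie left of the band in every mouse, and the genes named as above background reach or pass it.

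The tissue and the arrays set limits on what follows. The 11 measured hepatocyte markers all passed the background filter, and the signal of albumin ranged over 4510 to 6052. Beta-actin's 3'-to-5' signal ratio, a measure of RNA integrity, stood at 2.03, 2.11 and 2.19 for testosterone mice when treatment ended, against 1.44, 1.64 and 1.48 for vehicle mice, with no overlap. After withdrawal it was 1.82, 1.57 and 1.47 in testosterone mice, against 1.60, 1.83 and 1.89 in vehicle mice. Vehicle mouse 2 of the earlier time read 5042 for the acute phase protein gene Saa1 and 2008 for Lcn2, against 379 and 247 for Saa1 and 102 and 56.4 for Lcn2 in the 2 other vehicle mice. The 19 measured macrophage and Kupffer cell markers all passed the filter, and at the end of treatment their signals summed to 3483 to 4188 in testosterone mice and 4752 to 7320 in vehicle mice. After withdrawal the sums were 2785 to 3093 in testosterone mice and 2370 to 4328 in vehicle mice. Of 12 measured T and NK cell markers, 0 passed the filter, and Cd4 and Cd8b1 lay under the floor on every array. In bulk liver, fewer cells of a type and less RNA per cell cannot be told apart.

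At the end of treatment, livers of testosterone mice carried less mRNA for the G1 cyclin Ccnd1, for thymidine kinase Tk1, for the helicase subunit Mcm4, for the clamp Pcna and for the ribonucleotide reductase subunit Rrm1 than livers of vehicle mice. These 5 of the 17 genes tested fell and 0 rose at an adjusted p under 0.05 in limma. Over all 7217 genes tested, 8.01% fell, 9.42% rose and 17.4% changed in either direction. The median log2 change was -0.21 over the 17 genes and 0.04 over all genes. In the 12 genes that were not called, the estimates lay on both sides of 0.

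Ccnd1 encodes cyclin D1, the partner of Cdk4 and Cdk6 that links growth signals to the cycle. It read 122, 197 and 161 in testosterone mice, against 462, 359 and 486 in vehicle mice. Each testosterone mouse lay below each vehicle mouse, and on this probe set these vehicle mice also lay above all 6 mice of the withdrawal time. The means were 160 ± 37.5 with testosterone and 436 ± 67.6 with vehicle (SD, n = 3 each), a log2 change of -1.46 ± 0.26 (SE, adjusted p = 0.00164), or 2.74-fold lower with testosterone. Both other probe sets of Ccnd1 fell as well, by log2 changes of -1.04 ± 0.20 (adjusted p = 0.00273) and -1.23 ± 0.34 (adjusted p = 0.0200) when every probe set was tested. In that fit 8 of the 31 probe sets of these genes were lower with testosterone, against 10.2% of all probe sets tested. Among the 5 falling genes, Ccnd1 alone was called in all 26 alternative analyses of this comparison. With the actin ratio added to the fit its change was -2.40 ± 0.46 (adjusted p = 0.0246).

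The remaining G1 genes gave smaller estimates. Ccnd2, another D-type cyclin, read 51.0, 45.9 and 47.4 in testosterone mice, against 67.7, 53.1 and 62.0 in vehicle mice. The mice did not overlap, but the log2 change of -0.34 ± 0.13 missed the threshold (adjusted p = 0.0822). Cdk4, the kinase partner of D cyclins, read 108, 112 and 116 with testosterone and 120, 126 and 119 with vehicle on the probe set used here, a change of -0.12 ± 0.12 (adjusted p = 0.501). A different Cdk4 probe set read 48.8, 60.8 and 47.4 with testosterone, against 99.9, 118 and 66.8 with vehicle, and was called lower when every probe set was tested (-0.83 ± 0.21, adjusted p = 0.0136). The direction for Cdk4 was the same on its 3 probe sets while the size differed. Ccnd3, also a D-type cyclin, and Cdk2, the kinase of cyclin E, changed by 0.05 ± 0.21 and 0.02 ± 0.24, and their mice overlapped.

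None of the 3 inhibitors of cyclin-dependent kinases was called. Cdkn1b, which encodes p27, read 53.2, 45.4 and 49.1 in testosterone mice, against 34.03, 43.7 and 40.01 in vehicle mice. It was the only 1 of the 17 genes whose testosterone mice all lay above the vehicle mice, with a log2 change of 0.33 ± 0.15 (adjusted p = 0.135). Non-overlap in that direction held for 20.6% of all genes tested, and non-overlap with testosterone lower held for 8 of the 17 and for 15.1% of all genes. Cdkn2c, an inhibitor of Cdk4 and Cdk6, changed by -0.20 ± 0.14 (adjusted p = 0.365). Cdkn1a, which encodes p21, lay under the array median in all 6 mice and gets no fold here.

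**Figure D2:**
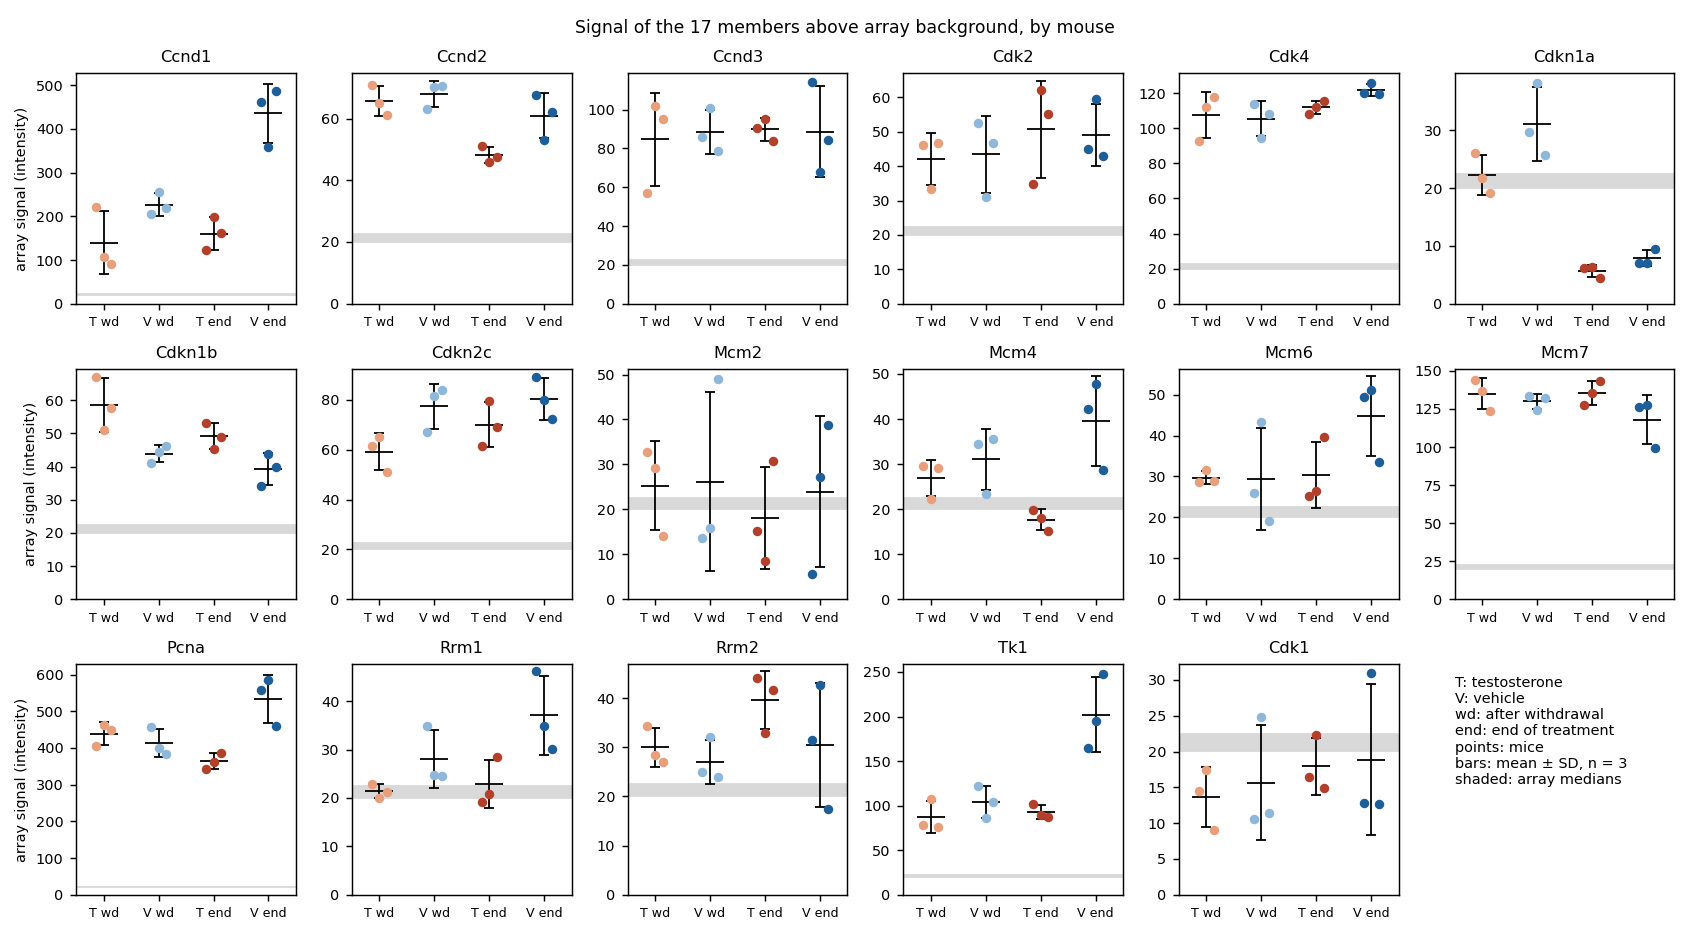
Array signal (intensity, linear axes from 0) of the 17 genes above background in each mouse, with group means ± SD (n = 3) and the range of array medians shaded. Vehicle mice of the earlier time stand above the other groups for Ccnd1 and Tk1, and Cdkn1a is higher in both withdrawal groups than in both groups at the end of treatment.

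Of the replication fork genes, Mcm4 and Pcna fell. Mcm4, a subunit of the replicative helicase, read 19.8, 17.9 and 15.1 in testosterone mice, against 42.2, 47.8 and 28.6 in vehicle mice. The testosterone mice were all under the array median, so the difference is given as at least 1.90-fold lower, set against that median. The fitted log2 change was -1.14 ± 0.23 (adjusted p = 0.00443) in limma. The other Mcm4 probe set was under the array median on every array and its mice overlapped. It read 11.6, 9.62 and 8.17 with testosterone, against 14.9, 16.95 and 11.4 with vehicle. Pcna read 343, 361 and 387 in testosterone mice, against 557, 585 and 461 in vehicle mice. Its groups did not overlap, and it was 1.46-fold lower with testosterone (-0.55 ± 0.11, adjusted p = 0.00344). The 3 other helicase subunits tested were not called. Mcm6 read 25.2, 26.4 and 39.7 with testosterone and 49.5, 51.1 and 33.4 with vehicle, and the groups overlapped (-0.56 ± 0.27, adjusted p = 0.170). Mcm7 had a positive estimate, at 127, 136 and 143 with testosterone and 127, 128 and 99.5 with vehicle (0.21 ± 0.12, adjusted p = 0.244). Mcm2 scattered from 8.42 to 30.7 in testosterone mice and from 5.72 to 38.8 in vehicle mice, and its change of -0.21 ± 0.66 is too imprecise to place. Under the median, Mcm5 read 8.07, 7.79 and 11.9 with testosterone, against 15.0, 18.5 and 13.8 with vehicle, and the groups did not overlap. When every gene was tested without the filter, 0 of the 16 dim genes was called at this time in limma, and 4 had an unadjusted p under 0.05. Of these 4, Mcm5, Ccnb2 and Aurkb had negative log2 changes (-0.79, -1.06 and -0.29), and Foxm1 had a positive one (0.66).

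Of the genes of deoxynucleotide supply, Tk1 and Rrm1 fell. Tk1, the salvage enzyme that phosphorylates thymidine, read 102, 89.3 and 87.2 in testosterone mice, against 164, 195 and 247 in vehicle mice. These vehicle mice lay above all 9 other mice of the study. The log2 change was -1.10 ± 0.17 (adjusted p = 0.000638), 2.15-fold lower with testosterone. Rrm1, the large subunit of ribonucleotide reductase, read 19.2, 20.8 and 28.4 with testosterone, against 46.2, 34.8 and 30.2 with vehicle, a log2 change of -0.70 ± 0.22 (adjusted p = 0.0409). The groups of Rrm1 came within 2 units of each other, its call was lost in 8 of 26 alternatives, and its other probe set changed by -0.33 ± 0.22 (adjusted p = 0.320). Rrm2, the small subunit, read 44.1, 32.9 and 41.7 with testosterone, against 31.4, 42.6 and 17.4 with vehicle, and was not called (0.46 ± 0.27, adjusted p = 0.255). Its probe sets disagreed in sign, with 0.46, 0.37 and -0.37. Cdk1, the mitotic kinase, read 16.5, 22.4 and 14.9 with testosterone, against 12.9, 31.0 and 12.7 with vehicle, a change of 0.04 ± 0.41 with overlapping mice.

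Beside these decreases, 8 of the 19 macrophage markers fell with testosterone at this time and 0 rose, against 8.01% and 9.42% of all genes. Of 10 endothelial markers, 2 fell and 0 rose. Cd68 read 41.0 ± 10.7 in testosterone mice and 89.1 ± 21.3 in vehicle mice (-1.12 ± 0.20, adjusted p = 0.00181), and C1qb, a complement gene of macrophages, read 219 ± 12.7 with testosterone and 481 ± 116 with vehicle (-1.11 ± 0.23, adjusted p = 0.0043). Other macrophage markers changed less, with -0.51 ± 0.16 for Csf1r (adjusted p = 0.0391) and -0.56 ± 0.19 for Clec4f (adjusted p = 0.0561, not called). The median log2 change over the 19 markers was -0.57. The share of the macrophage or endothelial markers in the fall of the replication genes was not tested. The actin ratio separated the same mice, so a fit that holds it cannot cleanly divide a change between the ratio and the treatment. Estimates stayed negative in that fit, at -0.82 ± 0.36 for Tk1 and -1.22 ± 0.49 for Mcm4 (adjusted p = 0.404 and 0.357). Pcna and Rrm1 gave -0.39 ± 0.22 and -0.50 ± 0.46 (adjusted p = 0.538 and 0.749). Without vehicle mouse 2, the mouse with high Saa1, the changes were -1.59 for Ccnd1, -1.12 for Tk1, -0.99 for Mcm4, -0.48 for Pcna and -0.73 for Rrm1, and the first 4 remained called.

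**Figure D3:**
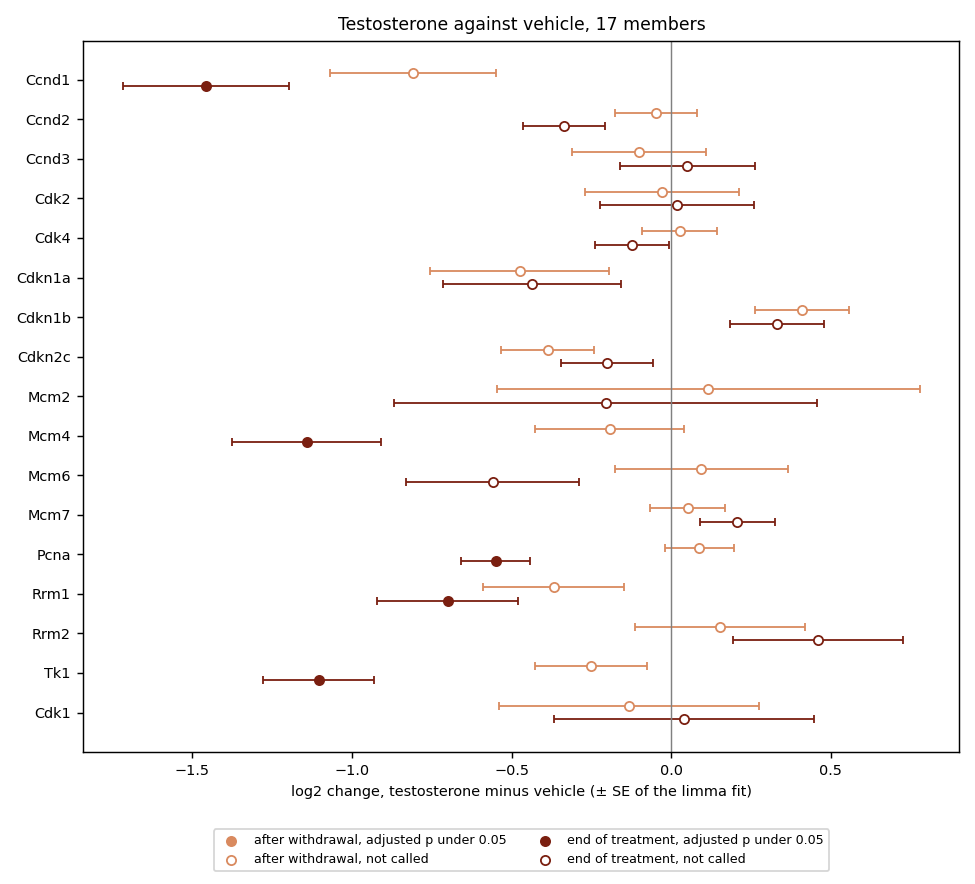
Log2 change, testosterone minus vehicle (± SE of the limma fit), for 17 genes after withdrawal and at the end of treatment. Filled points are called at an adjusted p under 0.05: 5 genes at the end of treatment, all to the left of 0, and 0 genes after withdrawal.

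Start-site windows are shown for Tk1, Pcna and Rrm1, the genes lower with testosterone at the end of treatment that had one. The sequence motifs of cell cycle promoters are known, and common control of these genes was not tested. Windows run from 250 bases before to 50 after the annotated start, 5′ to 3′ on the gene's strand, from RefSeq on GRCm38.p6. Capitals mark CCAAT on either strand, the box bound by NF-Y, and TTTGAA on either strand, the core of the cell cycle homology region (CHR) of G2 and M phase genes. Cdc20 is shown as a mitotic gene under background and Cdkn1a for its change between the times described below. The windows lie at chr11:117825965-117826264 on the minus strand for Tk1, chr2:132253131-132253430 on the minus strand for Pcna, chr7:102441445-102441744 on the plus strand for Rrm1, chr17:29093519-29093818 on the plus strand for Cdkn1a and chr4:118437294-118437593 on the minus strand for Cdc20.
Tk1: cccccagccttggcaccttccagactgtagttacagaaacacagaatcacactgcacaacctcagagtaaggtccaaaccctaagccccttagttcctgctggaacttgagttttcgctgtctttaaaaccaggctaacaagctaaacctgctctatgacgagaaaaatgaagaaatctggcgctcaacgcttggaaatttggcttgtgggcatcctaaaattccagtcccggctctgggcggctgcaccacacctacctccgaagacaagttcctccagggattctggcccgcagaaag
Pcna: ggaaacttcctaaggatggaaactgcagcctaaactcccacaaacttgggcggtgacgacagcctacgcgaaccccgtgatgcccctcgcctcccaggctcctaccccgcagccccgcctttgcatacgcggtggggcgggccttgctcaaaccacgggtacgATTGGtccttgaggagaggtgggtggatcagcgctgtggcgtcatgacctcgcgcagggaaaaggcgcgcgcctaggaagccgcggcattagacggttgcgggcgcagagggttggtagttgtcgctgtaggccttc
Rrm1: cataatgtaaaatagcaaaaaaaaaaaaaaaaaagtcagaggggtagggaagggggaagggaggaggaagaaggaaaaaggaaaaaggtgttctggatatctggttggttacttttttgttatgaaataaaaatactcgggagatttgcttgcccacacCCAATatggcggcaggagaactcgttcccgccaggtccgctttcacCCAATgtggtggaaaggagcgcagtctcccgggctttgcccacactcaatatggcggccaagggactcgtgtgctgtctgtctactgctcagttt
Cdkn1a: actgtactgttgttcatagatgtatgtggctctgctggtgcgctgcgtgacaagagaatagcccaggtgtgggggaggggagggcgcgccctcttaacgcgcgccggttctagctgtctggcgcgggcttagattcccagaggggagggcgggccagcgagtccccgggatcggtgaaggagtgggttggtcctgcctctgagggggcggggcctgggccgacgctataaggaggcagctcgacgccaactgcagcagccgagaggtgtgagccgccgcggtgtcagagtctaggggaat
Cdc20: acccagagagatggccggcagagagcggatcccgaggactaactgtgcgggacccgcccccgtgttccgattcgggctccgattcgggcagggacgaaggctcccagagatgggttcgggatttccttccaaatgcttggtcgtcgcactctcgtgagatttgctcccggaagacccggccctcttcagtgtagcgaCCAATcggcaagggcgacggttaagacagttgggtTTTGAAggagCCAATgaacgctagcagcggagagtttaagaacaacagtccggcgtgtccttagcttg

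The table held 31 windows for 27 of the 34 genes, and Ccnd1, Ccnd2, Mcm4, Ccne2, Ccna2, Aurkb and Foxm1 were not matched. CCAAT occurred in 22 of the 31 windows (71.0%), against 37.4% of all 32851 windows. The Pcna window held 1 CCAAT, 87 bases before the start (-87) on the reverse strand, the Rrm1 window held 2, at -91 and -45, and the Tk1 and Cdkn1a windows held 0. Any of TTTCGCGC, TTTGGCGC, TTTCCCGC and TTTGGCGG, forms of the E2F site searched on both strands, occurred in 6 of 31 windows (19.4%), against 2.37% of all. TTTCGCGC on 1 strand can overlap TTTGGCGC on the other. None of the 5 windows printed above held an E2F form. TTTGAA occurred in 8 of the 31 windows (25.8%), against 17.9% of all. It was in 6 of the 13 windows of genes not tested (46.2%) and in 2 of the 18 windows of tested genes (11.1%). In the same order the shares were 76.9% and 66.7% for CCAAT, and 15.4% and 22.2% for the E2F forms. The genes not tested here include Ccnb1, whose level was not analysed, and some tested genes have more than 1 window. In Cdc20 the TTTGAA lay at -18, between CCAAT boxes at -53 and -8.

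After withdrawal, the 2 treatments could not be told apart in most of these genes. Of the 17 tested, 0 were called in limma and 3 had an unadjusted p under 0.05, while 6.0% of all genes tested were called. The median log2 change was -0.05 over the 17 genes and -0.04 over all genes. Ccnd1 read 222, 106 and 91.1 in testosterone mice, against 205, 256 and 219 in vehicle mice. The first testosterone mouse lay within the vehicle range and the 2 others lay below it. The change was -0.81 ± 0.26 (adjusted p = 0.0820), and it was called without testosterone mouse 1 (-1.20, adjusted p = 0.00158). Another Ccnd1 probe set read 196, 111 and 55.2 with testosterone, against 215, 334 and 277 with vehicle, and was called when every probe set was tested (-1.35 ± 0.34, adjusted p = 0.0311), 1 of 31 probe sets of these genes lower, against 2.71% of all probe sets.

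Cdkn1b and Cdkn2c gave the other nominal differences. Cdkn1b read 67.1, 51.0 and 57.6 in testosterone mice, against 41.0, 44.5 and 46.2 in vehicle mice, again without overlap (0.41 ± 0.15, adjusted p = 0.122). Non-overlap with testosterone higher held for 1 of 17 genes and for 11.2% of all genes. Cdkn2c read 61.3, 65.3 and 51.1 with testosterone, against 67.2, 81.3 and 83.8 with vehicle (-0.39 ± 0.14, adjusted p = 0.135). With Rrm1, at 23.0, 20.1 and 21.3 with testosterone and 34.9, 24.7 and 24.6 with vehicle (-0.37 ± 0.22, adjusted p = 0.363), it was 1 of 2 genes whose testosterone mice all lay lower, against 14.7% of all genes. The other Rrm1 probe set had the opposite sign, at 0.20 ± 0.22 (adjusted p = 0.653) when every probe set was tested. Pcna, Mcm4 and Tk1, which had fallen at the end of treatment, changed by 0.09 ± 0.11, -0.19 ± 0.23 and -0.25 ± 0.17. The remaining 10 genes, Ccnd2, Ccnd3, Cdk2, Cdk4, Cdkn1a, Mcm2, Mcm6, Mcm7, Rrm2 and Cdk1, had adjusted p-values of 0.356 to 0.961.

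The testosterone effect itself differed between the times for 1 of the 17 genes, in the positive direction, against 2.19% of all genes called and 0.79% called in that direction. For Pcna the effect after withdrawal minus the effect at the end of treatment was 0.64 ± 0.15 (adjusted p = 0.0444). This call was lost in 15 of 25 alternatives, while the estimate stayed between 0.44 and 0.74. Tk1 differed by 0.85 ± 0.25 (adjusted p = 0.0773), Mcm4 by 0.95 ± 0.33 (adjusted p = 0.118) and Ccnd1 by 0.65 ± 0.37 (adjusted p = 0.316). These differences were positive on the probe sets used, but apart from Pcna they missed the threshold, and a different Ccnd1 probe set gave -0.12 ± 0.48. Over the 17 genes the median difference was 0.15, and over all genes it was -0.07.

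Between the times, the vehicle mice themselves changed. In vehicle mice, 1 of the 17 genes was higher after withdrawal than at the end of treatment and 3 were lower, against 11.0% and 6.83% of all genes, 17.8% in either direction. The lower genes were Ccnd1, Tk1 and Pcna, and the higher one was Cdkn1a. Ccnd1 averaged 227 ± 26.1 after withdrawal and 436 ± 67.6 at the end of treatment (-0.94 ± 0.26, adjusted p = 0.0230). This call was lost in 6 of 26 alternatives, and the 2 other Ccnd1 probe sets, at -0.50 ± 0.20 and -0.31 ± 0.34, were not called (adjusted p = 0.10 and 0.561). Tk1 averaged 104 ± 18.2 after withdrawal and 202 ± 41.9 at the end (-0.95 ± 0.17, adjusted p = 0.00238), with 122, 85.6 and 104 in the single mice after withdrawal. Pcna read 458, 399 and 384 after withdrawal, below every mouse at the end of treatment (-0.37 ± 0.11, adjusted p = 0.0310), and its call was lost in 9 of 26 alternatives. The helicase subunit gene Mcm5 read 10.1, 7.49 and 7.45 after withdrawal and 15.0, 18.5 and 13.8 at the end, all under the array median. When every gene was tested without the filter, Mcm5 was called lower in limma (-0.92 ± 0.20, adjusted p = 0.0320). It was the only 1 of the 16 dim genes called there. In the same comparison 15 of the 19 macrophage markers fell and 0 rose, and 3 of 10 endothelial markers fell and 0 rose. The part of either in the change of the replication genes was not tested.

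In testosterone mice the same comparison left Ccnd1, Tk1 and Pcna uncalled. Ccnd1 averaged 140 ± 71.7 after withdrawal and 160 ± 37.5 at the end of treatment (-0.29 ± 0.26, adjusted p = 0.527). Tk1 read 78.5, 108 and 76.0 after withdrawal, overlapping the end of treatment (-0.10 ± 0.17, adjusted p = 0.765). Pcna read 405, 463 and 450, above every testosterone mouse at the end of treatment, without a call (0.27 ± 0.11, adjusted p = 0.125). Of the 17 genes, 2 were higher after withdrawal and 0 lower, against 5.57% and 5.31% of all genes, 10.9% in either direction. One was Ccnd2, at 70.9, 64.9 and 61.2 after withdrawal (0.45 ± 0.13, adjusted p = 0.0355). Its call was lost in 12 of 26 alternatives, and 4 other Ccnd2 probe sets changed by -0.40 to 0.17 with no call. The median over the 17 genes was -0.20 in vehicle mice and -0.06 in testosterone mice, against 0.06 and -0.01 over all genes. Over the 4 groups, the vehicle mice of the earlier time had the highest mean for 8 of the 17 genes and for 22.4% of all genes.

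Cdkn1a exceeded the array median in 5 of the 6 withdrawal mice and in no mouse at the end. It thus passed the filter through the withdrawal mice alone, and its p-values between the times do not allow for that selection. In limma it was called higher after withdrawal in both treatments. After withdrawal it read 25.98, 21.8 and 19.1 in testosterone mice and 29.7, 38.2 and 25.7 in vehicle mice. When treatment ended it read 6.17, 6.34 and 4.50 in testosterone mice and 6.998, 7.11 and 9.44 in vehicle mice. On this probe set, all 6 mice of the later time lay above all 6 of the earlier. In vehicle mice the means were 31.2 ± 6.40 after withdrawal and 7.85 ± 1.38 at the end (fitted log2 change 1.98 ± 0.28, adjusted p = 0.000415). In testosterone mice they were 22.3 ± 3.45 after withdrawal and 5.67 ± 1.02 at the end (1.94 ± 0.28, adjusted p = 0.000471). Mice at the end of treatment were under the array median, so the folds are bounds of at least 1.48 in vehicle mice and at least 1.09 in testosterone mice. The other Cdkn1a probe set was under the array median on every array, and its mice overlapped between the times. It read 5.52 in testosterone mouse 2 after withdrawal and 6.73 in testosterone mouse 3 at the end.

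Transcripts of the circadian clock also separated the 2 times. These genes were chosen after the values of Wee1 were seen. Dbp, an output gene of the clock, averaged 23.8 ± 20.1 after withdrawal and 797 ± 69.0 at the end in testosterone mice, and 12.3 ± 4.26 after withdrawal and 658 ± 140 at the end in vehicle mice. Arntl, the clock activator BMAL1, averaged 84.8 ± 6.76 after withdrawal and 14.2 ± 3.30 at the end in testosterone mice, and 83.2 ± 20.7 after withdrawal and 11.9 ± 3.51 at the end in vehicle mice. The sources used here do not give the hour of sampling. The withdrawal time, the clock state, the age of the mice and any batch cannot be told apart in Cdkn1a or in the other differences between the times.

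**Figure D4:**
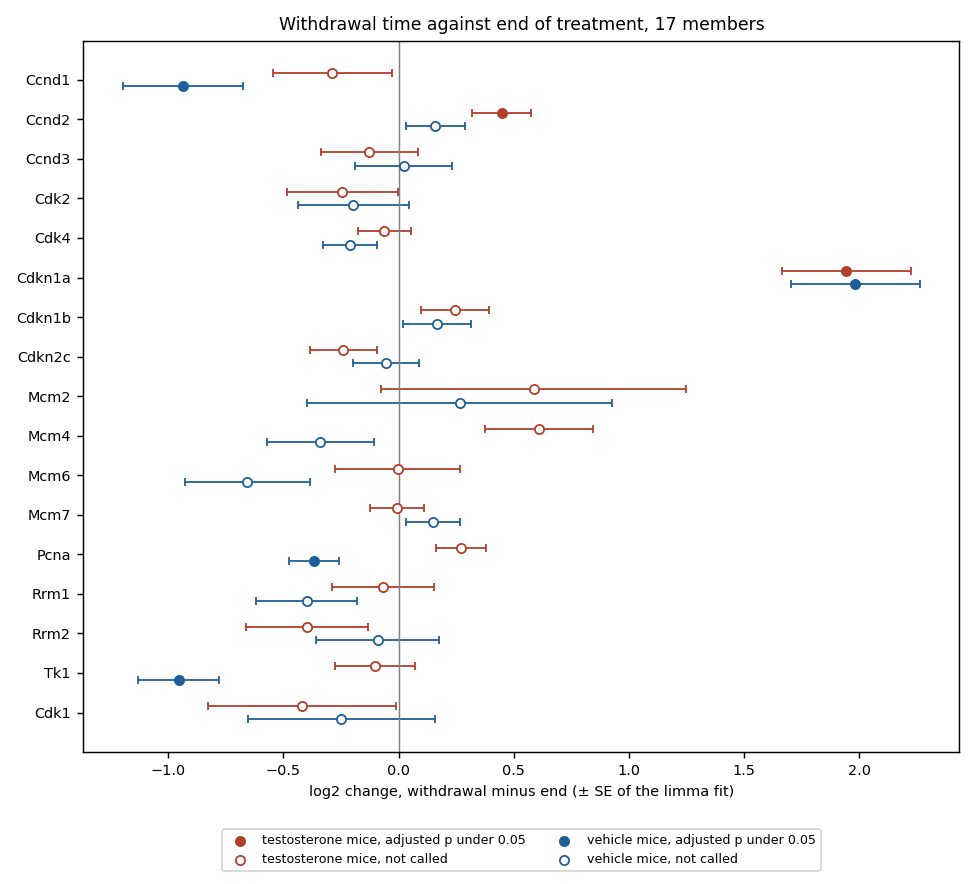
Log2 change, withdrawal time minus end of treatment (± SE of the limma fit), for 17 genes in testosterone mice and in vehicle mice. Cdkn1a lies near 2 in both, and Ccnd1, Tk1 and Pcna are called lower in vehicle mice and not called in testosterone mice.

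Genes of the same pathways that are not among the 34 were taken from lists of 149, of which 134 were measured and 71 tested. At the end of treatment 5 of the 71 rose with testosterone and 4 fell, against the 9.42% and 8.01% of all genes given above, with a median of -0.02. After withdrawal 2 were higher and 3 lower, against 2.74% and 3.26% of all genes, with a median of -0.09. Of 15 tested polymerase and replication fork genes, 0 were called by limma in any comparison, and 0 to 3 had an unadjusted p under 0.05. Over all genes tested, 2.19% to 17.8% were called, depending on the comparison. Of 46 measured mitotic genes outside the 34, 10 passed the background filter and were tested. Among these 10, Ccnf alone was called, higher in both treatment comparisons, against 9.42% and 2.74% of all genes.

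The replication factor Mcm10 and Ccnf, the F-box protein cyclin F, were higher with testosterone at both times. At the end of treatment Mcm10 read 488, 440 and 504 in testosterone mice, against 185, 208 and 199 in vehicle mice (1.27 ± 0.16, adjusted p = 0.00011). After withdrawal it read 158, 245 and 240 with testosterone, against 121, 87.2 and 89.7 with vehicle (1.10 ± 0.16, adjusted p = 0.000635). Its direction was thus opposite to that of Mcm4. Ccnf averaged 63.1 ± 15.9 with testosterone and 21.0 ± 7.17 with vehicle at the end (1.62 ± 0.25, adjusted p = 0.000586). After withdrawal it averaged 55.8 ± 7.44 with testosterone and 20.7 ± 4.02 with vehicle (1.44 ± 0.25, adjusted p = 0.00281). Single vehicle mice of Ccnf lay around the array median, from 13.4 to 27.7.

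Myc, Gadd45g and Plk3 had their highest group mean with testosterone at the end of treatment. The testosterone effect differed between the times for 3 of the 71 genes, Myc, Gadd45g and Tob1, all in the negative direction, against 1.4% of all genes. Myc, a transcription factor that drives cell growth, read 93.1, 60.6 and 72.1 in testosterone mice, against 13.6, 9.51 and 24.2 in vehicle mice (2.34 ± 0.30, adjusted p = 0.000133). Its effect after withdrawal was -0.36 ± 0.30, and the effects differed by -2.70 ± 0.43 (adjusted p = 0.0088). Gadd45g, a stress-induced growth arrest gene, averaged 102 ± 12.7 with testosterone and 22.2 ± 8.61 with vehicle at the end of treatment (2.28 ± 0.35, adjusted p = 0.000488), and its effects differed by -2.07 ± 0.49 (adjusted p = 0.0437). The Polo-like kinase Plk3 averaged 120 ± 16.7 with testosterone and 36.5 ± 6.08 with vehicle (1.72 ± 0.28, adjusted p = 0.000888), and the difference of its effects missed the threshold (-1.58 ± 0.40, adjusted p = 0.0527). In testosterone mice these 3 genes were lower after withdrawal than at the end, with log2 changes of -2.77 ± 0.30 for Myc, whose withdrawal mice were all under the array median (at least 3.53-fold lower, set against that median), -1.67 ± 0.35 for Gadd45g and -2.14 ± 0.28 for Plk3. The antiproliferative gene Tob1 changed by 0.30 ± 0.11 at the end of treatment and -0.33 ± 0.11 after withdrawal, and only the difference of -0.64 ± 0.15 was called (adjusted p = 0.0426).

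Of 10 tested genes of nucleotide metabolism outside the 34, 3 were lower and 0 higher with testosterone at the end of treatment, against 8.01% and 9.42% of all genes. One of the 3 depended on the choice of probe set, as described below. Mthfd1, a folate enzyme that feeds purine and thymidylate synthesis, averaged 535 ± 19.3 in testosterone mice and 804 ± 111 in vehicle mice (-0.58 ± 0.10, adjusted p = 0.00138). After withdrawal it averaged 669 ± 26.5 with testosterone and 933 ± 70.6 with vehicle (-0.48 ± 0.10, adjusted p = 0.00992). Dck, deoxycytidine kinase, read 23.6, 14.2 and 19.7 with testosterone, against 33.5, 34.6 and 32.7 with vehicle after withdrawal (-0.84 ± 0.19, adjusted p = 0.0155). Samhd1, which degrades deoxynucleotides, fell at the end of treatment (-0.61 ± 0.18, adjusted p = 0.0321), but its probe sets disagreed, and their mean gave 0.36 ± 0.20. The growth arrest gene Gas1 averaged 96.0 ± 6.96 with testosterone and 164 ± 35.8 with vehicle at the end (-0.75 ± 0.23, adjusted p = 0.0330), and the antiproliferative Btg1 averaged 324 ± 79.3 with testosterone and 527 ± 29.1 with vehicle after withdrawal (-0.73 ± 0.15, adjusted p = 0.00764).

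Between the times, 3 of the 71 genes rose and 3 fell in vehicle mice, against 11.0% and 6.83% of all genes. In testosterone mice 1 rose and 9 fell, against 5.57% and 5.31%, and the median log2 change of the 71 was -0.03, against -0.01 in vehicle mice. Wee1, a kinase that restrains Cdk1 and a known clock target, read 10.7, 16.3 and 34.4 in testosterone mice after withdrawal, against 103, 94.8 and 74.9 at the end of treatment (-2.31 ± 0.30, adjusted p = 0.0002). In vehicle mice it read 17.4, 22.9 and 19.3 after withdrawal, against 89.3, 88.4 and 96.8 at the end (-2.21 ± 0.30, adjusted p = 0.000296). Gmnn, the licensing inhibitor geminin, averaged 48.2 ± 3.92 after withdrawal and 93.0 ± 13.7 at the end in testosterone mice (-0.94 ± 0.14, adjusted p = 0.000685). In vehicle mice it averaged 58.7 ± 6.98 after withdrawal and 96.6 ± 10.3 at the end (-0.72 ± 0.14, adjusted p = 0.00378). Mcm10 was lower after withdrawal, with log2 changes of -1.18 ± 0.16 in testosterone mice and -1.01 ± 0.16 in vehicle mice. Ccng2, a cyclin linked to arrest, was higher in vehicle mice, at 130 ± 12.8 after withdrawal and 69.3 ± 9.11 at the end (0.92 ± 0.17, adjusted p = 0.0025). Gas1 was higher after withdrawal in both treatments, by 1.01 ± 0.23 and 0.72 ± 0.23 (adjusted p = 0.0105 in testosterone mice and 0.0407 in vehicle mice).

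**Figure D5:**
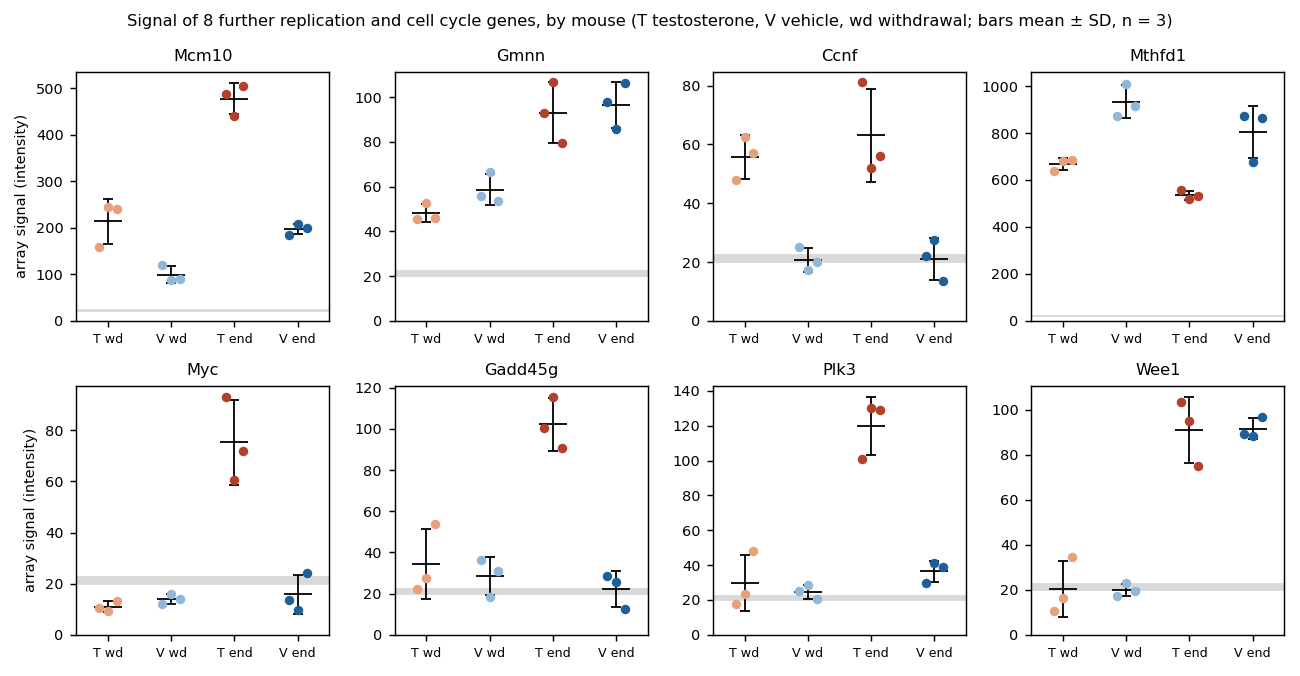
Array signal (intensity) of 8 replication and cell cycle genes outside the 34, in each mouse, with group means ± SD (n = 3) and the array medians shaded. Mcm10 and Ccnf are higher in testosterone than in vehicle mice at both times, Myc, Gadd45g and Plk3 have their highest mean with testosterone at the end of treatment, and Wee1 and Gmnn are lower after withdrawal in both treatments.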

How the data were processed

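Liver RNA of 12 mice was labelled in 1 amplification cycle and hybridised to Affymetrix arrays, per the labels' protocols. Each probe set carries a linear intensity that the authors deposited. GCOS and MAS5, with no version, are the programs in the submitters' processing notes. Each array had a 2% trimmed mean of about 100.05, so no scaling was added, and detection calls are not used here. Of 22690 probe sets, 20380 had 1 gene symbol in the platform annotation and were used.

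Signals under 4.84, the 25th percentile, were set to that floor before log2, and a gene was represented by its probe set of highest mean log2 value. Of 12393 genes, 7217 exceeded the array median on at least 3 of 12 arrays and were tested with limma 3.58.1 in R 4.3.3 (4 group means, variance trend, Benjamini-Hochberg over all genes tested, adjusted p under 0.05). Log2 changes carry the SE of that fit, and folds are 2 to the power of the change. Means ± SD are of the deposited signals. Where every mouse of the dimmer group was under the array median, the fold is given as a bound against that median. Groups came from the sample titles, and replicates are separate mice per the series text. The number of arrays limits the precision. No 2 arrays were identical, and arrays of a group correlated at 0.979 to 0.989. The code was tested on simulated data.

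All 34 genes are named. Of the pathway genes outside them, up to 8 called genes per comparison with the largest changes were named. The members, lists and rules were chosen with earlier results of these data known. Alternatives covered centring, quantile normalization, floor, filter, probe set, variance model, samples in the fit, the actin ratio, a replicate block and leaving out each mouse. Testing every probe set above the filter was added after seeing the data.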

Additional observations from a re-analysis of the deposited data

Results flagged for a closer look

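The testosterone effect differed between the 2 times for 1 gene of the set and 3 pathway genes outside it, by the limma contrast of the 2 effects. For Pcna, the effect after withdrawal minus the effect at the end of treatment was 0.64 on the log2 scale, with 0.09 after withdrawal and -0.55 at the end of treatment. Myc differed by -2.70, Gadd45g by -2.07 and Tob1 by -0.64. For Myc and Gadd45g the difference lay in the high signal of testosterone mice at the end of treatment, and for Tob1 the 2 effects had opposite signs. The actin ratio also differed between these mice at the end of treatment, and with it in the fit none of the 4 differences was called in limma. Its part in the differences was not tested.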

How the results depend on the processing

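Ccnd1 at the end of treatment and Cdkn1a between the times in vehicle mice were called in every alternative that tested them, 26 and 25 in number. Cdkn1a passed the filter through the withdrawal mice alone, and every alternative that keeps this filter shares that selection. Tk1, Mcm4 and Pcna at the end of treatment were lost only with the actin ratio in the fit, which left 1 of the 5 calls (Ccnd1) and 78 calls over all genes, against 1258. With the actin ratio the calls were also 2 of 4 between the times in vehicle mice, 0 of 2 in testosterone mice and 0 of 1 for the difference of the effects. Leaving out 1 mouse gave 4 to 5 calls at the end of treatment, 0 to 1 after withdrawal (1 without testosterone mouse 1 of that time), 0 to 2 for the difference of the effects, 2 to 4 in vehicle mice and 1 to 2 in testosterone mice. The low of 2 in vehicle mice came without vehicle mouse 1 at the end of treatment and without vehicle mouse 3 after withdrawal. The difference of the effects had 2 calls (Pcna and Tk1) without vehicle mouse 1 after withdrawal, and 0 calls without any testosterone mouse of the end of treatment, vehicle mouse 1 or 2 of that time, testosterone mouse 2 or 3, or vehicle mouse 2 or 3 after withdrawal. It also had 0 with median centring, no filter, the mean of probe sets and no variance trend. In testosterone mice between the times 1 call was left with median centring, the filter on mean signal, the mean of probe sets and only the 2 groups in the fit. The causes were not tested. Members above background numbered 6 at the 75th percentile of the array and 10 when all 12 arrays had to pass, against 17.

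The replicate numbers do not pair the mice: deviations of same-numbered arrays correlated at -0.194 to 0.00565. With the replicate block, 4 members were called at the end of treatment, 0 after withdrawal, 0 for the difference, 3 in vehicle mice and 1 in testosterone mice.

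Calls that appeared only in alternatives were Ccnd1 after withdrawal (-1.20) and between the times in testosterone mice (-0.68), both without testosterone mouse 1 of the withdrawal time, Ccnd2 at the end of treatment without vehicle mouse 2 (-0.43), Mcm6 in vehicle mice without mouse 2 after withdrawal (-0.98), and Cdk4 at the end of treatment with the mean of its probe sets (-0.47) or without shared ones (-0.83). Mcm5, which the filter leaves out, was called lower between the times in vehicle mice with no filter (-0.92). Samhd1 at the end of treatment turned to 0.36 with the mean of its probe sets. Pathway genes outside the 34 numbered 9 at the end of treatment and 4 with the actin ratio. After withdrawal there were 5, against 3 with no filter, 1 without shared probe sets and 3 to 9 without 1 mouse. For the difference of the effects there were 3, against 0 with no filter or the actin ratio, 1 with no variance trend or the replicate block, 5 with log2(signal + 16) or every probe set tested, and 1 to 9 without 1 mouse. Between the times the 6 in vehicle mice became 3 with the actin ratio, and the 10 in testosterone mice became 6 with no filter and 5 without shared probe sets. Genes near the array median have the least signal over background, and the 16 dim genes were left out of the main tests.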

Other observations

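Per3 and Nr1d2, clock transcripts other than those named above, also differed between the times. With Nr1d1, they were likewise chosen after the values of Wee1 were seen. Per3 averaged 4.09 ± 3.15 after withdrawal and 54.7 ± 5.31 at the end in testosterone mice, and 9.51 ± 2.68 after withdrawal and 51.1 ± 10.2 at the end in vehicle mice. Nr1d2 averaged 164 ± 16.04 after withdrawal and 534 ± 55.2 at the end in testosterone mice, and 134 ± 8.88 after withdrawal and 494 ± 58.0 at the end in vehicle mice. Nr1d1, the repressor REV-ERB alpha, was higher with testosterone after withdrawal, at 40.5 ± 17.97 in testosterone mice and 10.1 ± 4.42 in vehicle mice, which were all under the array median (adjusted p = 0.0103, at least 1.71-fold, set against that median). At the end of treatment it was not called (0.17 ± 0.43, adjusted p = 0.819). Between the times Nr1d1 was not called in testosterone mice (0.39 ± 0.43, adjusted p = 0.617).

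Alas2, the erythroid enzyme of haem synthesis, rose with testosterone at both times, by 1.75 ± 0.24 at the end of treatment and 2.01 ± 0.24 after withdrawal (adjusted p = 0.000202 and 8.1e-05). At the end of treatment the summed signal of the 6 measured erythroid markers was 299.9 to 384 in testosterone mice and 116 to 168 in vehicle mice, and after withdrawal 296 to 392 in testosterone mice and 108 to 167 in vehicle mice. These sums include Alas2 itself. Of the 6 markers only Alas2 and Klf1 passed the background filter, and Epb42 lay under the floor on every array. Klf1, an erythroid transcription factor, fell at the end of treatment (-0.54 ± 0.18, adjusted p = 0.0480). The heavy chain gene Ighm of B cells was lower with testosterone after withdrawal (-1.33 ± 0.31, adjusted p = 0.0167).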
